A study of Homo sapiens with 6 samples.

Results

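MHC class II molecules are the surface proteins that show peptides to CD4+ T cells, and the genes described here are 9 that make, regulate or load them: the transactivator CIITA, the peptide-presenting chains HLA-DRA, HLA-DRB1, HLA-DPA1 and HLA-DPB1, the peptide editor subunits HLA-DMA and HLA-DMB, the invariant chain CD74 and the lysosomal protease CTSS. The members were chosen by name, as the rows with these symbols among 23228 gene symbols per library, and all 9 were found. The libraries hold polyadenylated RNA from a triple-negative breast cancer cell line, MDA-MB-231. Every culture received lentivirus and puromycin. The control group of 3 libraries ("scramble") carries a scrambled short hairpin RNA, and the other 3 carry short hairpin RNA that the labels describe as directed at SCUBE3, a secreted and cell-surface protein. Cells were grown in DMEM with serum and kept in puromycin for a week, and SCUBE3 was checked by western blot, a result not analysed here. The labels do not name the hairpin sequences, the number of hairpins or any clones. Nothing in them says whether the 3 replicates were grown separately, and the p-values below therefore cover only how these libraries vary, and that variation may be technical.

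MHC class II is normally restricted to B cells, dendritic cells, macrophages and thymic epithelium, while many other cells, tumour cells among them, make it when interferon-gamma switches on CIITA. CIITA does not bind DNA itself: it docks onto a complex of RFX, NF-Y and CREB proteins that sits on the X and Y boxes shared by class II promoters. The alpha and beta chains pair in the endoplasmic reticulum with CD74, which blocks the groove. CTSS then trims CD74 to a short peptide called CLIP, and the HLA-DM dimer exchanges CLIP for antigen.

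SCUBE3 RNA, the check of the labels, was read 96, 91 and 80 times in scramble and 99, 107 and 101 times in the libraries that carry its hairpin. The groups overlap, and the log2 fold change was 0.03 ± 0.14 (SE; edgeR, adjusted p = 0.871), so the second group is named "labelled knockdown" and each direction is that of the labels. Reads in genes ran from 21348509 to 25520901 per library. At an adjusted p threshold of 0.05, 85.9% of 13606 tested genes were called. Of the same 13606, 43.4% were called higher and 42.5% lower in the labelled-knockdown libraries, and the libraries of the groups did not overlap for 43.3% and 42.5%. The counts of members and of genes in related lists below are to be read against those shares. Reads aligned to several places were 34.0% to 34.2% of a scramble file and 29.3% to 29.6% of a labelled-knockdown file. How reads were shared out among the similar HLA loci is uncertain. MDA-MB-231 genes reported as high were well read in both groups: AXL had 1281 ± 59.1 CPM in scramble and 1139 CPM in labelled knockdown, and VIM 4370 ± 109 and 2394 CPM (CPM are counts scaled to the library's reads in genes and edgeR's TMM factor; SD, n = 3). Of the genes listed as low in this line, ESR1 had at most 4 reads in any library and CDKN2A 1 read in all 6. PGR had 25, 18 and 23 reads in scramble and 0 in the labelled-knockdown libraries. GATA3 and ERBB3, of the same list, were read in both groups. GATA3 had a mean of 5.91 CPM in scramble and 15.5 CPM in labelled knockdown, and ERBB3 12.2 and 5.86 CPM. CDH1, which this line is known to lack, had 1, 2 and 0 reads in scramble and 42, 52 and 58 in labelled knockdown.

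Each of the 9 members was called higher in the labelled-knockdown libraries, beside 43.4% of all tested genes, and their groups of libraries did not overlap for any of them. CD74 went from 28.5 to 542 CPM, and the other 8 from at most 2.83 CPM to between 25.6 and 131 CPM. For CIITA, HLA-DMA, CD74 and CTSS the 3 scramble libraries also reached the low-count filter. HLA-DRA, HLA-DRB1, HLA-DPA1, HLA-DPB1 and HLA-DMB passed it only through the labelled-knockdown libraries, so that their call was fixed by the filter and 9 of 9 is a description. In bulk RNA, more cells that make a transcript and more RNA per cell cannot be told apart. An exact permutation test on 3 against 3 libraries cannot go below p = 0.1, so single genes are given with the fit across all genes.

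**Figure D1:**
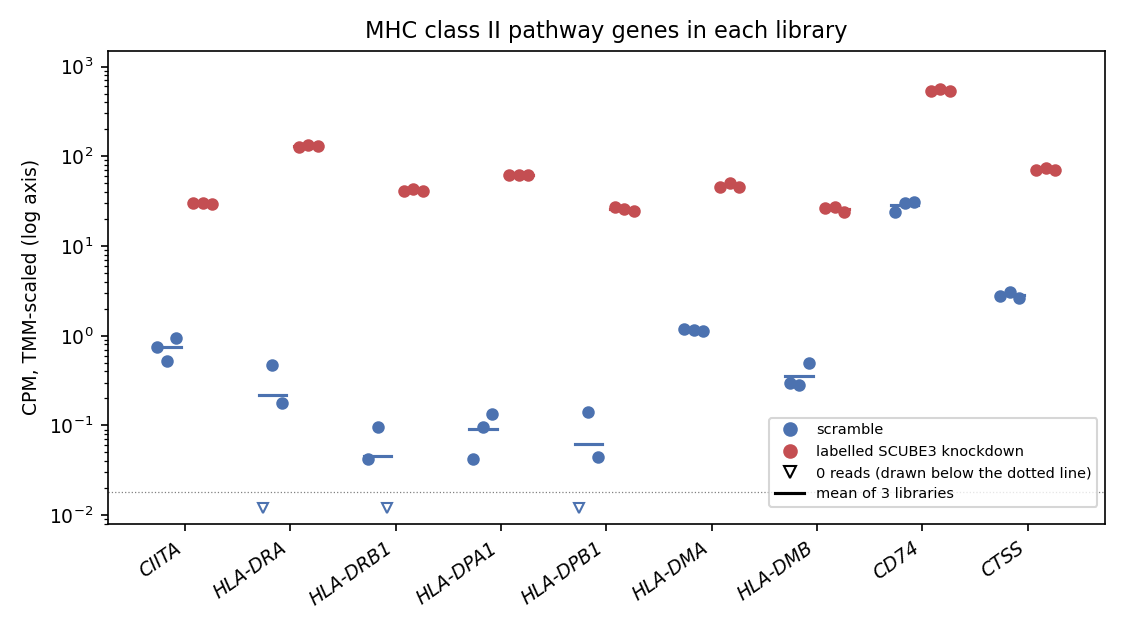
CPM (TMM-scaled, log axis) of the 9 genes in each of 6 libraries. Points are libraries, bars are means of 3 libraries, and open triangles stand for 0 reads. Labelled-knockdown values lie above the scramble values for every gene, from HLA-DRB1 with 3 scramble reads in all to CD74, which scramble libraries already read at 24.2 to 31.1 CPM.

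CIITA, the master regulator, was read at a low level in scramble, with 18, 11 and 21 reads, and with 754, 783 and 721 reads in the labelled-knockdown libraries. All 3 scramble libraries held CIITA reads, and the lowest labelled-knockdown count was far above the highest of them. The mean rose from 0.742 ± 0.211 to 29.9 ± 0.602 CPM (SD, n = 3). The log2 fold change was 5.31 ± 0.13 (SE), a 39.7-fold difference (edgeR adjusted p = 1.71e-31).

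HLA-DRA encodes the nearly invariant alpha chain of HLA-DR, the class II isotype usually made in the largest amount. It had 0, 10 and 4 reads in scramble and 3184, 3480 and 3221 reads in the labelled-knockdown libraries. The scramble libraries differed among themselves, replicate 1 having no HLA-DRA read and replicate 2 most of the 14, while the other group varied by 2.57% (coefficient of variation of CPM, n = 3). The mean went from 0.219 ± 0.241 to 131 ± 3.36 CPM (SD, n = 3), with a log2 fold change of 9.25 ± 0.14 (SE, edgeR). That size rests on a few scramble reads: it was 10.46 without scramble replicate 2, 8.63 without scramble replicate 1 and 10.04 with limma-voom.

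HLA-DRB1 encodes the polymorphic beta chain that pairs with HLA-DRA. It had 1, 2 and 0 reads in scramble against 1031, 1114 and 1007 reads. With 3 scramble reads the difference is best given as a ratio of reads, 930 with a 95% counting interval of 318 to 4514 (counting error only; reads carry no molecular identifiers). edgeR's fitted log2 fold change was 9.70, and 10.59 without scramble replicate 2. Summing HLA-DRB1 with HLA-DRB3, HLA-DRB4, HLA-DRB5 and HLA-DRB6, to which its reads could go where the reference held them, gave 8.73.

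The HLA-DP pair showed the same contrast between traces and clear reading. HLA-DPA1, the alpha chain, had 1, 2 and 3 reads in scramble and 1552, 1624 and 1517 reads in the labelled-knockdown libraries, or 0.0908 ± 0.0466 against 62.1 ± 0.652 CPM (SD, n = 3). Its log2 fold change was 9.35 ± 0.15 (SE, edgeR). HLA-DPB1, the beta chain, had 0, 3 and 1 reads against 677, 666 and 611, or 0.0627 ± 0.0732 against 25.8 ± 1.21 CPM, a log2 fold change of 8.64 ± 0.21 (SE). The HLA-DPB1 value was 9.90 without scramble replicate 2 and 8.04 without scramble replicate 1. Annotated HLA-DPA1 and HLA-DPB1 exons overlap on opposite strands, and whether counting used the strand is not stated here, so reads of the pair may not be told apart where they overlap. The same holds for HLA-DMA with BRD2 and for CIITA with DEXI.

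The HLA-DM subunits, which stay inside the cell and edit peptides rather than present them, started from a low level in scramble. HLA-DMA had 28, 24 and 25 scramble reads, the most even of the members there, and 1141, 1291 and 1138 reads in the labelled-knockdown libraries. In CPM it rose from 1.15 ± 0.0272 to 47.2 ± 2.27 (SD, n = 3). The log2 fold change was 5.35 ± 0.10 (SE; edgeR adjusted p = 1.12e-34). HLA-DMB had 7, 6 and 11 reads against 655, 697 and 588, or 0.359 ± 0.118 against 25.6 ± 1.64 CPM, a log2 fold change of 6.14 ± 0.16 (SE).

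CD74, the invariant chain and also a receptor for the cytokine MIF, was the member read most in both groups. It had 575, 634 and 692 reads in scramble and 13252, 14453 and 13296 reads in the labelled-knockdown libraries. Scramble libraries read 24.2, 30.2 and 31.1 CPM, replicate 1 being the lowest, and the labelled-knockdown libraries 531, 558 and 538 CPM. The log2 fold change was 4.25 ± 0.06 (SE), a 19.1-fold difference (edgeR adjusted p = 3.68e-22). CTSS, the cathepsin that finishes the breakdown of CD74, had 66, 64 and 59 reads against 1770, 1897 and 1719, or 2.83 ± 0.204 against 71.2 ± 1.84 CPM (SD, n = 3). Its log2 fold change was 4.65 ± 0.08 (SE; edgeR adjusted p = 1.11e-36).

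**Figure D2:**
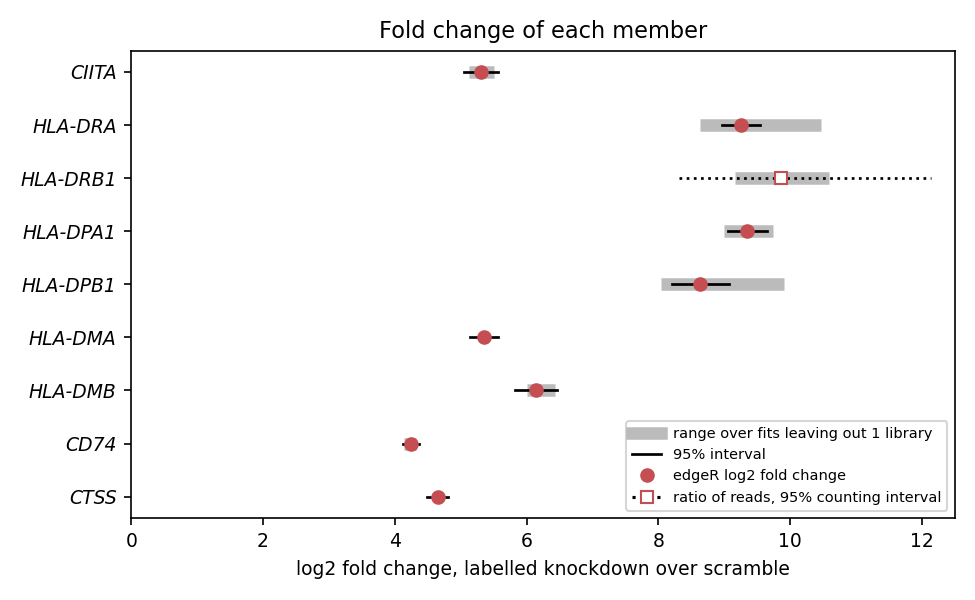
Log2 fold change of each member, labelled knockdown over scramble, with its 95% interval (lines) and the range over fits that leave out 1 library (grey bars); HLA-DRB1 is drawn as the log2 ratio of reads with its counting interval. The HLA-DR and HLA-DP chains lie to the right with wide grey bars, reaching from 8.63 to 10.46 for HLA-DRA, and CD74, CTSS and CIITA lie between 4.25 and 5.31. For HLA-DRA, HLA-DPA1 and HLA-DPB1 the grey bars reach beyond the 95% intervals, which are too narrow there.

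The members fell into separate ranges by how much of their labelled-knockdown level was already read in scramble. HLA-DRB1, HLA-DPA1, HLA-DRA and HLA-DPB1 stood at 0.110%, 0.146%, 0.168% and 0.243% of that level. HLA-DMB stood at 1.40%, HLA-DMA at 2.44%, CIITA at 2.49%, CTSS at 3.97% and CD74 at 5.26%. The presenting chains were thus below each of the other 5 members in this share, with 3 to 14 scramble reads behind each of their values. This order is a description, and the difference between the members was not tested.

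Levels of different genes can be compared only per length. Dividing CPM by the median length of a gene's complete protein-coding transcripts in GENCODE 29, CD74 was highest in the labelled-knockdown libraries at 512 CPM per kilobase, followed by HLA-DRA at 107, HLA-DMA at 46.9, HLA-DPA1 at 36.4, HLA-DRB1 at 33.9, CTSS at 25.8, HLA-DMB at 18.4, HLA-DPB1 at 16.6 and CIITA at 7.96. The libraries of neighbours in this order did not overlap except those of HLA-DMB and HLA-DPB1. The place of CTSS depends on the transcript, and CIITA was lowest with any of its annotated lengths: with the longest and the shortest annotated one CTSS lay between 17.3 and 50.1 and CIITA between 1.86 and 12.7 CPM per kilobase. In each pair the alpha chain was read more than its beta chain per length, HLA-DRA 3.15 ± 0.0565 times HLA-DRB1, HLA-DPA1 2.20 ± 0.0912 times HLA-DPB1 and HLA-DMA 2.56 ± 0.135 times HLA-DMB (SD, n = 3). HLA-DRB5, to which HLA-DRB1 reads could go, stood at 10.5 CPM per kilobase and is not part of the HLA-DRB1 ratio. The SDs cover the spread of the libraries and not how reads were placed. CD74 was read 4.79 ± 0.0205 times as much as HLA-DRA. Reads that fit several loci are not counted, which bears on these ratios: of all 50-base stretches, the length of a read, 9.92% of HLA-DRB1 and 2.65% of HLA-DPB1 also occur in transcripts of other genes, against 0% for HLA-DRA and HLA-DPA1. For HLA-DMA the share is 11.6% and for HLA-DMB 29.01%, all with an annotated read-through transcript over both. That transcript overlaps the 2 genes at their own place in the genome, so these stretches do not mark reads of several loci. Whether the annotation used for counting held it is not given. MDA-MB-231's own HLA alleles were not used for these shares.

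**Figure D3:**
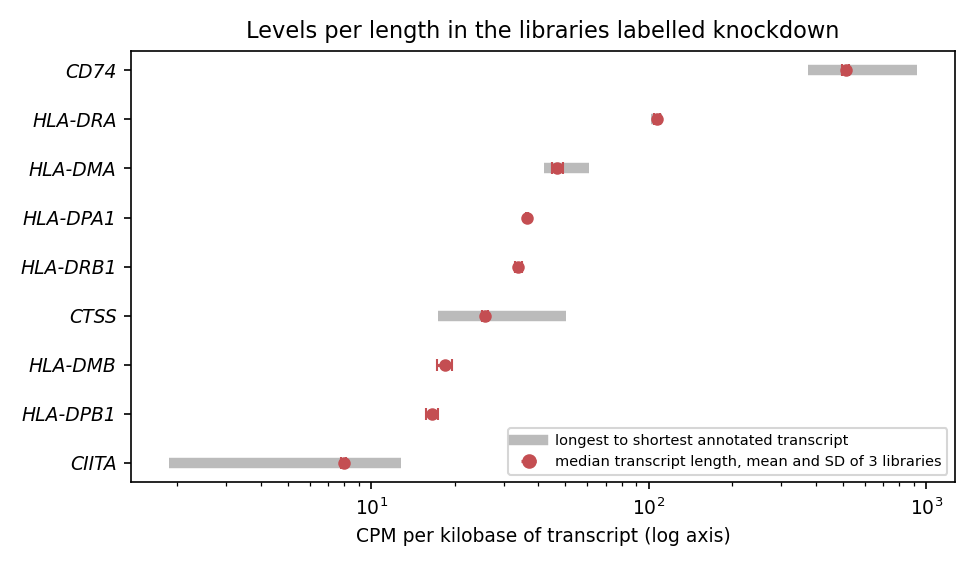
Level of each member per kilobase of transcript in the labelled-knockdown libraries (log axis), as the mean and SD of 3 libraries at the median transcript length. Grey bars run from the longest to the shortest annotated transcript; CD74 at 512 and HLA-DRA at 107 CPM per kilobase lie above the rest, and the bars of CTSS and CIITA are wide.

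Since the class II promoters share boxes read by the CIITA-bound complex, their sequences are shown for the members that RefSeq's promoter table (GRCh38.p14) holds, 6 of 9. HLA-DRA, CIITA and CTSS are not shown. Each line gives the 150 bases before the start, 5′ to 3′ on the gene's strand, from the reference genome and not from these cells. Capitals mark matches on either strand to an X-box pattern, CNAGNNAC, and to the Y-box core, ATTGG or CCAAT. The X pattern, and the spacing used below, were written after these sequences had been read. The stretches are HLA-DRB1 at chr6:32589849-32589998 (minus strand), HLA-DPA1 at chr6:33073650-33073799 (minus strand), HLA-DPB1 at chr6:33075840-33075989 (plus strand), HLA-DMA at chr6:32953098-32953247 (minus strand), HLA-DMB at chr6:32941029-32941178 (minus strand) and CD74 at chr5:150412911-150413060 (minus strand).
HLA-DRB1: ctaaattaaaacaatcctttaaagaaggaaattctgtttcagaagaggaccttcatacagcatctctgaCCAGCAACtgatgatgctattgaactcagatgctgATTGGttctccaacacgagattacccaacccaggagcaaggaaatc
HLA-DPA1: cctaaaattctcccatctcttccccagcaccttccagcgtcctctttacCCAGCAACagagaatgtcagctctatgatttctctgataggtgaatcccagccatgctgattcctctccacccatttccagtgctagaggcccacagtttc
HLA-DPB1: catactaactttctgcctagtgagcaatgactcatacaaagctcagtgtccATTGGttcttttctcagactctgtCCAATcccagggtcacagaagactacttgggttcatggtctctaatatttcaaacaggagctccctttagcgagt
HLA-DMA: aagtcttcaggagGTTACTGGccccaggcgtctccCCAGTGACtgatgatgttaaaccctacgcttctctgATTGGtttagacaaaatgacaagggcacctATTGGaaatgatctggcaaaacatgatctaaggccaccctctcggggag
HLA-DMB: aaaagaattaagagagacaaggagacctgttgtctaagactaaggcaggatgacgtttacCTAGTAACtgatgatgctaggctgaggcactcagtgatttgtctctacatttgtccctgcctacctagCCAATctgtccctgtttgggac
CD74: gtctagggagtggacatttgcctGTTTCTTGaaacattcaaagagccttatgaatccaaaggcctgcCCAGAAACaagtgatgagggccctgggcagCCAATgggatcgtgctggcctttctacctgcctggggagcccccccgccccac

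Within windows of 300 bases, 250 before to 50 after the start, the X pattern occurred in 5 of the 6 genes (not HLA-DPB1) and the Y core in 5 of 6 (not HLA-DPA1). These letters are common: 39.3% of all 35116 RefSeq windows held the X pattern and 34.6% the Y core. An X pattern followed on the same strand by ATTGG after 15 to 30 bases was found for HLA-DRB1, with 27 bases between, and HLA-DMA, with 28, and in 0.578% of all windows. HLA-DPA1 has a further RefSeq start upstream, whose window held neither. Among class II loci outside the 9 genes, HLA-DRB5, HLA-DQA1, HLA-DQB1 and HLA-DOA held that arrangement and HLA-DQA2, HLA-DQB2 and HLA-DOB did not. The matches describe letters, not bound sites. A window without a match may still hold a box whose letters differ from the pattern.

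**Figure D4:**
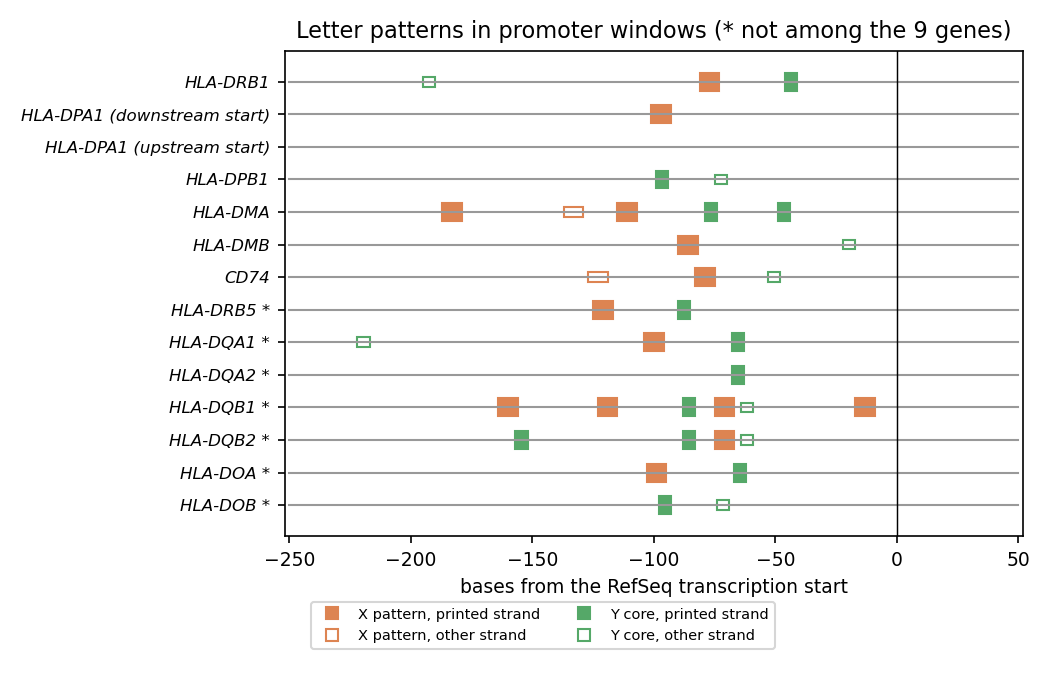
Positions of the X pattern and the Y core in the RefSeq promoter windows of 6 members and 7 other class II loci, in bases from the start; filled boxes lie on the gene's strand and open boxes on the other. HLA-DRB1 and HLA-DMA show an X pattern followed by a Y core after 27 and 28 bases, and HLA-DPB1 and HLA-DPA1 show exact matches to 1 of the patterns without the other. A missing match does not mean a missing box.

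The other class II loci did not follow the 9 genes uniformly. HLA-DOA, the alpha chain of HLA-DO, an inhibitor of HLA-DM, had 0 reads in scramble and 105, 86 and 80 reads in the labelled-knockdown libraries, at least 80.0-fold higher (floor of 3 reads over the group). HLA-DOB, its beta chain, was read evenly in scramble with 27, 20 and 24 reads and had 51, 57 and 41 in the other group, a log2 fold change of 0.89 ± 0.23 (SE; edgeR adjusted p = 5.83e-04), which did not pass against a 1.5-fold change (adjusted p = 0.0663). HLA-DRB5 had 1, 2 and 2 reads against 308, 342 and 353 (log2 fold change 7.38 ± 0.24). For the pseudogene HLA-DRB6, 1 scramble read stood against 318, and the ratio was 282 (95% counting interval 50.2 to 11156). HLA-DQ, the remaining classical isotype, was barely read: HLA-DQB1 had 1 scramble read and 17, 15 and 21 reads in the other group, and HLA-DQA1 0 scramble reads and 0, 1 and 3. HLA-DQB2 had 0 scramble reads and 3, 1 and 1 in labelled knockdown, and HLA-DQA2 0 and 1, 1 and 0. HLA-DRB3, HLA-DRB4 and HLA-DPB2 had 0 reads in all 6 libraries. Whether the reference used for alignment held the sequences of HLA-DRB3 and HLA-DRB4 was not tested. The 0 reads of HLA-DRB3 and HLA-DRB4 therefore do not show that their transcripts were absent. Of 11 loci 5 were tested, and all 5 were higher, beside 43.4% of all tested genes. Of the 5, 4 passed the filter only through the labelled-knockdown libraries.

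The complex that CIITA docks onto had no common direction. Of its 7 genes, 2 were higher, 2 lower and 3 not called, beside 43.4% higher and 42.5% lower of all tested genes. The median log2 fold change of the 7 genes was 0.07, beside 0.01 over all tested genes. RFX5, which contacts the X box, had 1862, 1650 and 1723 reads in scramble and 2507, 2604 and 2570 reads in the other group (log2 fold change 0.38 ± 0.04), and RFXANK rose by more (0.85 ± 0.06). CREB1 fell (-0.90 ± 0.04), as did the NF-Y subunit NFYB (-0.44 ± 0.05). The values of RFXAP (0.14 ± 0.11), NFYA (0.07 ± 0.04) and NFYC (0.01 ± 0.05) did not pass. NFYA passed with library totals as the scaling (0.12), with the replicate number as a block (0.07), without scramble replicate 1 (0.11) and without labelled-knockdown replicate 3 (0.10), and NFYC was -0.03 without scramble replicate 3.

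Genes on the route from interferon-gamma to CIITA were also mixed. No IFNG read was found in any library (0 reads, a level of at most 0.0448 CPM in scramble and 0.0397 CPM in labelled knockdown). Of 8 tested genes 5 were higher and 3 lower, with a median log2 fold change of 0.53. Over all tested genes 43.4% were higher and 42.5% lower. SOCS1, a feedback inhibitor of JAK kinases, had 1, 2 and 3 reads in scramble and 236, 302 and 289 in the labelled-knockdown libraries (log2 fold change 6.85 ± 0.26, and passing the filter only through the latter). IRF1, which binds the interferon-responsive CIITA promoter, had 525, 381 and 461 reads against 1873, 2037 and 1830 (1.90 ± 0.06). The receptor chain IFNGR2 (1.27 ± 0.05) and JAK1 (0.62 ± 0.04) were higher too.

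Genes of endosomal antigen processing were higher in 14 of 16 tested cases and lower in 1, with a median log2 fold change of 1.16. Over all tested genes 43.4% were higher and 42.5% lower. The aspartic protease CTSD had the smallest adjusted p, rising from 118 ± 7.93 to 1533 CPM (log2 fold change 3.70 ± 0.04). CTSF, another protease able to process CD74, had 4, 8 and 1 scramble reads and 1103, 1151 and 1101 reads in the other group (7.80 ± 0.15, or 8.60 without scramble replicate 2, passing the filter only through the latter). CTSB rose from 165 ± 5.64 to 434 CPM (1.39 ± 0.03) and the carboxypeptidase CTSA from 112 ± 1.13 to 235 CPM (1.07 ± 0.03). CTSC was the gene that fell (-0.68 ± 0.03), CTSL, listed as CTSL1, did not pass (0.02 ± 0.04), and CSTA had 0 reads in all 6 libraries. These names were chosen by smallest adjusted p except CTSC, CTSL and CSTA, which were named after their values were seen.

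**Figure D5:**
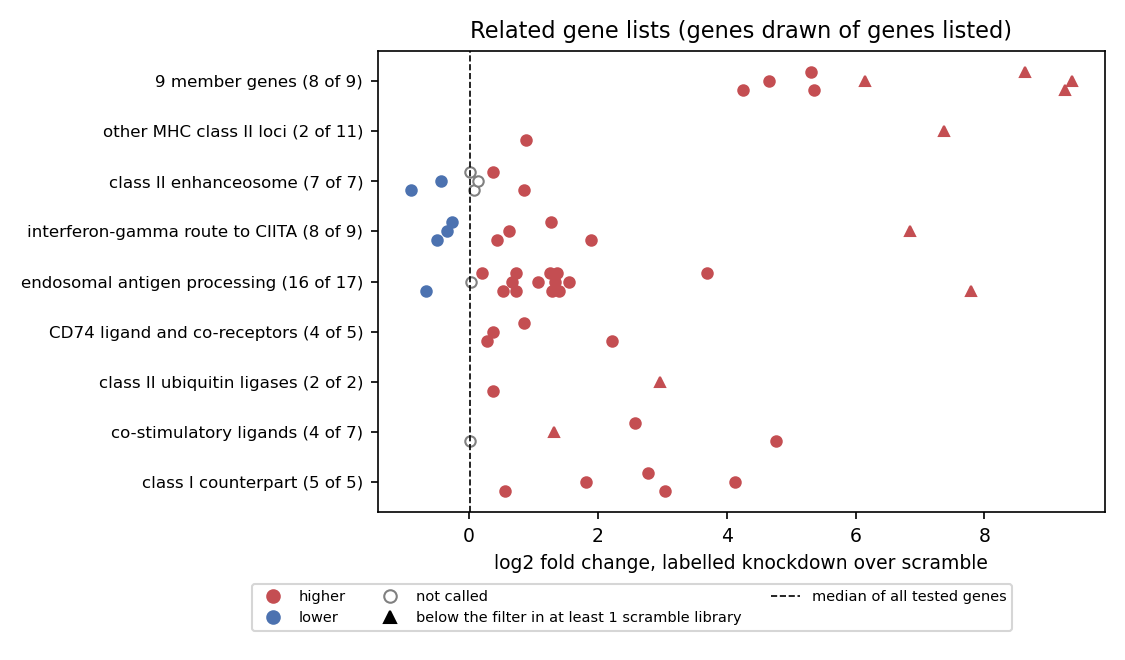
Log2 fold change (labelled knockdown over scramble) of genes in each related list that were tested and had over 3 reads in each group; triangles mark genes below the low-count filter in at least 1 scramble library, and the dashed line is the median of all tested genes, 0.01. The complex that CIITA docks onto lies around that line, from -0.90 to 0.85, and the drawn member genes from 4.25 to 9.35.

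The ligand and partners of CD74 differed less than CD74 did. All 4 tested genes were higher, beside 43.4% of all tested genes. MIF rose by a log2 fold change of 0.37 ± 0.07 and its relative DDT by 0.28 ± 0.07. The signalling partner CD44 rose by 0.86 ± 0.03 and CXCR4 by 2.22 ± 0.06 (SE), while CXCR2 had 0 reads in all libraries. Of the ubiquitin ligases that send class II molecules for degradation, MARCH1 had 2, 6 and 10 scramble reads and 48, 66 and 47 in labelled knockdown (2.96 ± 0.33, passing the filter only through the latter), and MARCH8 rose by 0.38 ± 0.08. Co-stimulatory ligands, which T cells read beside class II, included ICOSLG with 45, 36 and 65 reads against 1498, 1568 and 1411 (4.76 ± 0.10) and TNFSF9 (2.57 ± 0.14), both higher. TNFSF4 was higher at low counts (1.32 ± 0.33, passing the filter only through labelled knockdown) and CD40 did not pass (0.02 ± 0.06, -0.07 without scramble replicate 1 and -0.003 without labelled-knockdown replicate 1). CD80 and CD86, the ligands of CD28 on professional antigen-presenting cells, had 0 reads in all 6 libraries, and CD70 1 read in each group.

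The class I genes given here were higher as well. NLRC5, the relative of CIITA that drives class I genes through the same complex, had 260, 204 and 201 scramble reads and 834, 929 and 878 in labelled knockdown (log2 fold change 1.81 ± 0.07). HLA-B (4.13 ± 0.04), HLA-C (2.78 ± 0.04) and B2M, the light chain of class I (0.56 ± 0.03), were higher too, beside 43.4% of all tested genes.

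Several defining markers of cells that make class II constitutively were at or near 0. B-cell markers had summed levels of 0.191 to 0.589 CPM in scramble and 0.120 to 0.270 CPM in labelled knockdown over 6 genes, none of them tested, with MS4A1 at 0 reads. Of 12 macrophage and dendritic-cell markers, AIF1, SPI1, MPEG1 and TYROBP had 0 reads in all 6 libraries. In that list CD68, a lysosomal protein, was lower, and 3 genes were called higher that passed the low-count filter only through the labelled-knockdown libraries. The summed level was 284 to 291 CPM in scramble and 164 to 175 CPM in the other group, mostly CD68. CD14 had 9, 3 and 4 reads against 167, 153 and 148 and CSF1R 10, 7 and 3 against 114, 148 and 138, and the third, LYZ, had 4, 9 and 0 against 20, 21 and 20 (log2 fold change 2.02, or 3.13 without scramble replicate 2). PTPRC, the pan-leukocyte marker CD45, had 2 to 4 reads in every library, and the 5 T- and NK-cell markers had 1 read in all. The 6 pan-leukocyte genes summed to 828 to 879 CPM in scramble and 109 to 113 CPM in labelled knockdown, the difference being largely that of LCP1, and NCKAP1L had 154, 139 and 132 scramble reads and 0 in labelled knockdown. LAPTM5, of the same list, was well read in both groups and made up most of the labelled-knockdown sum. It had 187, 190 and 177 CPM in scramble and 104, 105 and 109 CPM in labelled knockdown. Endothelial markers, which can carry class II in human tissue, summed to 4.68 to 6.57 and 9.88 to 11.7 CPM, with PECAM1 and KDR higher and CDH5 at 0 to 2 reads per library. The part of CD14, CSF1R, PECAM1 and KDR in the class II result was not tested.

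The 5 genes outside the members whose pattern over the 6 libraries was closest to that of CD74 were B3GNT7, L1CAM, HCP5, MATN2 and SOCS1, by the root-mean-square difference of centred log2(CPM + 0.5) values. That difference was 0.0407 for B3GNT7, a glycosyltransferase, 0.0706 for the adhesion molecule L1CAM, 0.0861 for HCP5, a non-coding gene of the MHC class I region, 0.101 for the matrix protein MATN2 and 0.101 for SOCS1. L1CAM had 10.5, 13.3 and 13.4 CPM in scramble and 258, 268 and 268 CPM in labelled knockdown, replicate 1 of scramble being the lowest as for CD74. The 5 genes were picked for such likeness in these same libraries, so it is no separate observation. Their log2 fold changes were 5.83 for B3GNT7, 4.42 for L1CAM, 5.85 for HCP5, 4.34 for MATN2 and 6.85 for SOCS1, beside 4.25 for CD74. B3GNT7, HCP5 and SOCS1 had 0.227, 0.243 and 0.0908 CPM in scramble, below the 0.5 CPM added before the log, which brings their larger differences nearer to that of CD74.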

How the data were processed

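Polyadenylated RNA of 6 MDA-MB-231 libraries was measured, 3 per group as the titles give them. The authors deposited whole-number read counts for each gene symbol, made with bcl2fastq, TopHat2 2.0.8b and HTSeq on hg19, per the submitters' processing notes; the kit was stranded and reads were single, of 50 bases, per the labels' protocols. HTSeq's strand and overlap settings, and its annotation, were not given in the sources used here. The 5 summary lines per file were left out; reads in genes were 50.3% to 51.0% of a scramble file and 58.8% to 59.0% of a labelled-knockdown file. Genes kept by filterByExpr were scaled by TMM (factors 0.980 to 1.02) and tested with edgeR 4.0.16 (quasi-likelihood F test, robust, two-sided, R 4.3.3), adjusted by Benjamini-Hochberg over 13606 genes, threshold 0.05; SE is the fold change over the root of F. For genes with few scramble reads this SE can be too small. Leaving out 1 library moved HLA-DRA, HLA-DPA1, HLA-DPB1 and CTSF beyond their 95% intervals. The fit was tested on simulated counts. Within a group, libraries differed beyond counting noise (chi-square over degrees of freedom 1.69 to 3.55). Genes with 0 reads in a group are set against 3 reads over that group, and those with 1 to 3 reads are given as a ratio with an exact 95% interval.

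Alternatives were other scalings and filters, DESeq2 1.42.0, limma-voom (limma 3.58.1), omission of each library, a replicate block, summed loci, a 0.01 threshold and a 1.5-fold minimum. Named genes are the members, whole lists of up to 8 genes or else the 4 smallest adjusted p-values, with the exceptions stated, and the 5 genes most like CD74. Among the marker lists, the genes named were chosen after their values were seen. Some genes of the lists are not reported here. The members and lists were chosen with earlier results of these data known. Promoter sequences are RefSeq's (GRCh38.p14) and transcript lengths GENCODE 29's, on a newer build than the counts; the median transcript length replaced a single principal transcript after that of CIITA was seen to be 16059 bases long.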

Additional observations from a re-analysis of the deposited data

How the results depend on the processing

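CIITA, HLA-DMA, CD74 and CTSS, which reached the low-count filter in scramble too, kept direction and call under all 15 alternatives. For the other 5 members the filter fixed the call, and their kept calls say nothing of stability. Counted over all members, 9 were called higher and 0 lower in each setting that gives a count, leaving out any library included (9 to 9 and 0 to 0). The log2 fold change of CD74 ran from 4.14 to 4.32, of CTSS from 4.60 to 4.71, of HLA-DMA from 5.32 to 5.40, of CIITA from 5.12 to 5.51 and of HLA-DRA from 8.63 to 10.46. Labels share replicate numbers, and deviations of same-numbered libraries correlated by 0.056, 0.042 and 0.001. Those of unlike numbers correlated by -0.066 to 0.026. The labels do not say whether the numbers pair the samples, and correlations this small cannot decide it. With the replicate block 11706 genes were called in place of 11681, and 9 members higher. Against a 1.5-fold change 6251 of 13606 tested genes were called, and 9 of the members, 5 of them with a call fixed by the filter.

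Of 1091 values for 73 other genes, 1061 kept direction and call. Against a 1.5-fold change 16 calls were lost, among them RFX5, NFYB, JAK1, MIF, DDT, MARCH8, B2M and HLA-DOB, and NFYA gained a call in 4 settings. Reversals were in genes that did not pass: CD40 (-0.0678 without scramble replicate 1, -0.00312 without labelled-knockdown replicate 1, at most 0.0713 leaving out 1 library), NFYC (-0.0314 without scramble replicate 3, at most 0.0428), SCUBE3 (-0.0503 without scramble replicate 3, at most 0.0796) and CORO1A, whose -0.0016 became 2.73e-04 with DESeq2 size factors, 0.0498 with library totals, 0.00105 with the 1 CPM filter, and 0.120, 0.119 and 0.114 without scramble replicate 1, labelled-knockdown replicate 1 and labelled-knockdown replicate 3, and was -0.264 without labelled-knockdown replicate 2. The cause was not tested. Depth limits the scramble values: 3 to 14 reads lie behind each HLA-DR and HLA-DP chain, so the size of those changes is uncertain.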
